A study of Brassica rapa subsp. pekinensis with 6 samples.

Results

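The genes described here are 5 members of the phosphatidylethanolamine-binding protein (PEBP) family of Chinese cabbage. They were chosen by the protein names given in the annotation, with earlier results of these data known. The set holds a pair of genes described as MOTHER of FT and TFL1 (MFT), on chromosomes A09 and A06, and 1 gene each described as TWIN SISTER of FT-like (TSF-like), FLOWERING LOCUS T (FT) and BROTHER of FT and TFL 1 (BFT). Their 5 annotated transcripts and 1 assembled isoform make up 6 of the 57931 linear transcripts in the data, of which 33354 were annotated. RNA was read from germinated seeds of the double haploid line 'FT', which was derived from the variety 'Fukuda 50'. Seeds of both groups were germinated at room temperature, 25 °C per the paper's methods. The Nor seeds were then kept at that temperature, without cold, for about 48 h in the dark. The Ver seeds were kept at 4 °C for 25 days in the dark. Each group has 3 libraries of pooled seeds of this single line. A dish of seeds was a biological repetition, and whether a Nor and a Ver library share a dish is not given in the sources used here. Seeds were sampled when the groups had reached the same length. Age and temperature therefore differed together between the groups and cannot be told apart.

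PEBP proteins are small regulators of development, and the plant family holds clades with opposing roles. In Arabidopsis, FT moves from leaf to shoot apex as the florigen, TSF shares this role, and both act with the bZIP protein FD and with 14-3-3 proteins. TERMINAL FLOWER 1 (TFL1), CENTRORADIALIS and BFT act in the opposite direction and delay flowering or keep the inflorescence indeterminate. MFT belongs to the third clade and is best known from seeds, where it responds to abscisic acid (ABA) and gibberellin and takes part in the control of dormancy and germination. FT itself is repressed by FLOWERING LOCUS C (FLC) before vernalization and is switched on by long days through CONSTANS.

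The estimated counts totalled between 83976912 and 104903263 per library. Levels are given as FPKM, which is scaled for transcript length and library size, so that levels of different genes can be set side by side. The median annotated transcript was at 0.913 to 0.945 FPKM in the 6 libraries. A gene or transcript was called when its absolute log2 fold change exceeded 1 and its unadjusted p was at most 0.05, the thresholds of the study, and p adjusted over all rows tested is given beside each value. These samples are bulk germinated seeds, so fewer cells of a type and less RNA per cell cannot be told apart.

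Both MFT genes and the TSF-like gene had more RNA in the Ver seeds than in the Nor seeds, whereas FT and BFT were at or near 0 in both groups. Counts were summed over the isoforms of each gene and fitted with edgeR. Of the 5 genes, 3 passed the filter on low counts, and these 3 were called higher in Ver. Over all 32467 genes tested, 19.0% were called and 9.18% were called higher in Ver. The TSF-like gene passed the filter through its Ver libraries alone, so the count of 3 says nothing more about the family than the values of each gene that follow. A called rise of at least 8-fold, which all 3 of these genes had, was found for 2.07% of all genes.

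**Figure D1:**
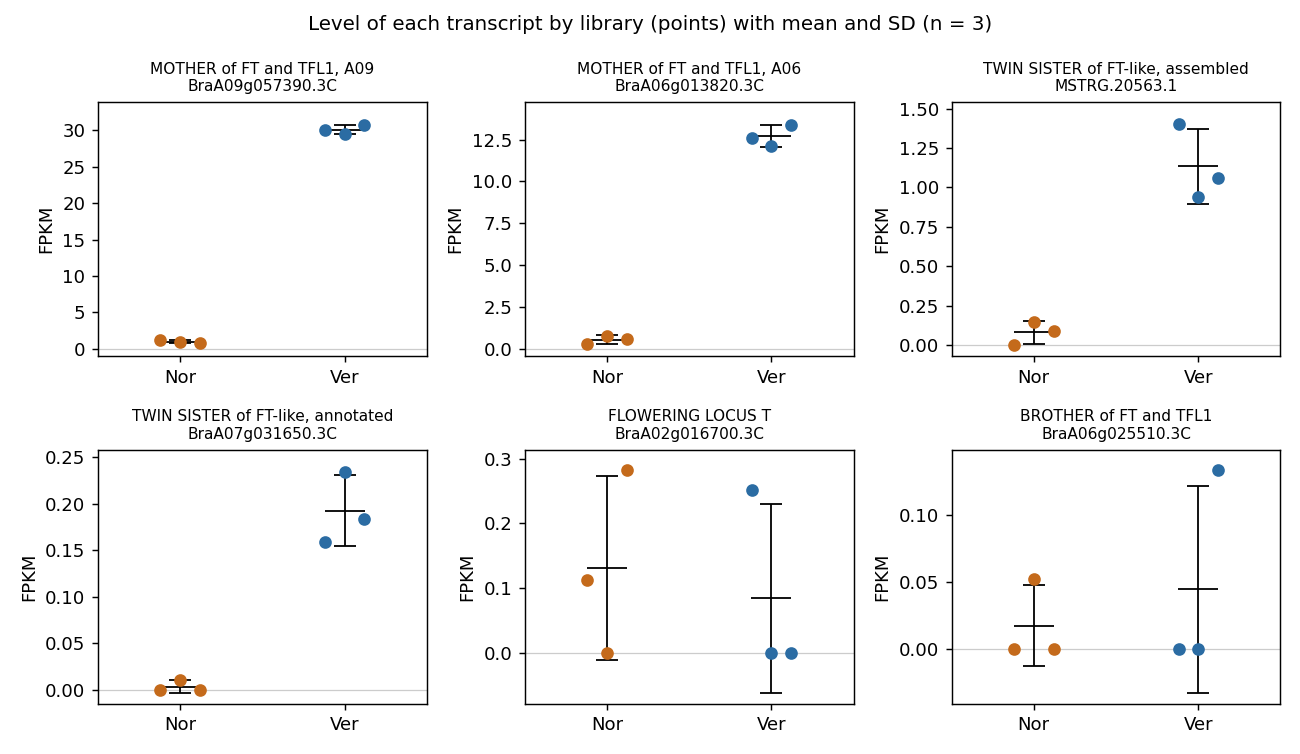
Level in FPKM (y axis, a separate scale in each panel) of the 5 annotated transcripts and the assembled TSF-like isoform in the Nor and Ver libraries, with points for libraries and bars for the mean and SD of 3. The MFT gene on A09 sits near 1 FPKM in Nor and between 29.5 and 30.8 FPKM in Ver, whereas FT and BFT are at 0 in most libraries.

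The MFT gene on A09, BraA09g057390.3C, was the most abundant of the 5. It lies on the plus strand of chromosome A09 from 40876375 to 40878100 (B. rapa v3.0), with 4 exons and a model of 522 bases, or 174 codons. It was at 1.17, 0.973 and 0.754 FPKM in Nor 1, 2 and 3 and at 30, 29.5 and 30.8 FPKM in Ver 1, 2 and 3. The highest Nor library was far below the lowest Ver library. The means were 0.965 ± 0.207 FPKM in Nor and 30.1 ± 0.67 FPKM in Ver (SD, n = 3). The estimated counts behind these levels were 84, 59 and 55 in Nor and 1998, 2009 and 2185 in Ver. The log2 fold change of the transcript was 4.95 (SE 0.2), a 30.9-fold rise, with an adjusted p of 7.07e-05 in the edgeR quasi-likelihood test over 49351 transcripts. In each Nor library this transcript stood in the middle of the annotated transcripts, with 47.2% to 53.5% of them below it. In each Ver library, 94.2% to 94.5% were below it. A larger rise was fitted for 504 of the 49351 transcripts tested.

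The MFT gene on A06, BraA06g013820.3C, changed in the same direction at a lower level. It lies on the minus strand of A06 from 7303633 to 7305401 (B. rapa v3.0) and also has 4 exons and 522 bases. It was at 0.289, 0.779 and 0.587 FPKM in Nor and at 12.6, 12.1 and 13.4 FPKM in Ver, from estimated counts of 21, 47 and 43 in Nor and 840, 824 and 949 in Ver. The groups did not overlap, and the means were 0.552 ± 0.247 and 12.7 ± 0.648 FPKM (SD, n = 3). The transcript rose 22.8-fold, with a log2 fold change of 4.51 (SE 0.41) and an adjusted p of 0.00116 in edgeR. The share of annotated transcripts below it was 34.9% to 47.4% in Nor and 87.0% to 88.1% in Ver. Its Nor libraries varied more than its Ver libraries, with a coefficient of variation of 44.7% against 5.11%. For the gene on A09 these were 21.5% and 2.23%.

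Fitted as genes, the rises of the pair were 4.96 (SE 0.14, adjusted p = 5.42e-09) on A09 and 4.54 (SE 0.25, adjusted p = 4.86e-07) on A06 in edgeR, on the log2 scale. Each gene holds a single transcript in the data, so the counts of gene and transcript are identical. The smaller errors come from the fit over genes, whose common dispersion was 0.0226 against 0.363 over transcripts. With 3 libraries against 3, an exact permutation test cannot go below 0.1, and both MFT genes reached that value.

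The level of the A09 gene divided by that of the A06 gene was steady in Ver and not in Nor. The ratio was 2.38, 2.44 and 2.3 in the Ver libraries and 4.04, 1.25 and 1.29 in the Nor libraries. Nor 1 was thus above every Ver library, and the other two Nor libraries were below every Ver library. On the log2 scale the mean ratio was 1.25 (SD 0.04) in Ver and 0.9 (SD 0.97) in Nor, a difference of 0.35 (exact permutation test, two-sided p = 0.4). The difference was 0.91 without Nor 1, 0.06 without Nor 2 and 0.08 without Nor 3. How reads that match both copies were assigned is not given in the sources used here, so the split between the copies is less certain than the rise of each.

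**Figure D2:**
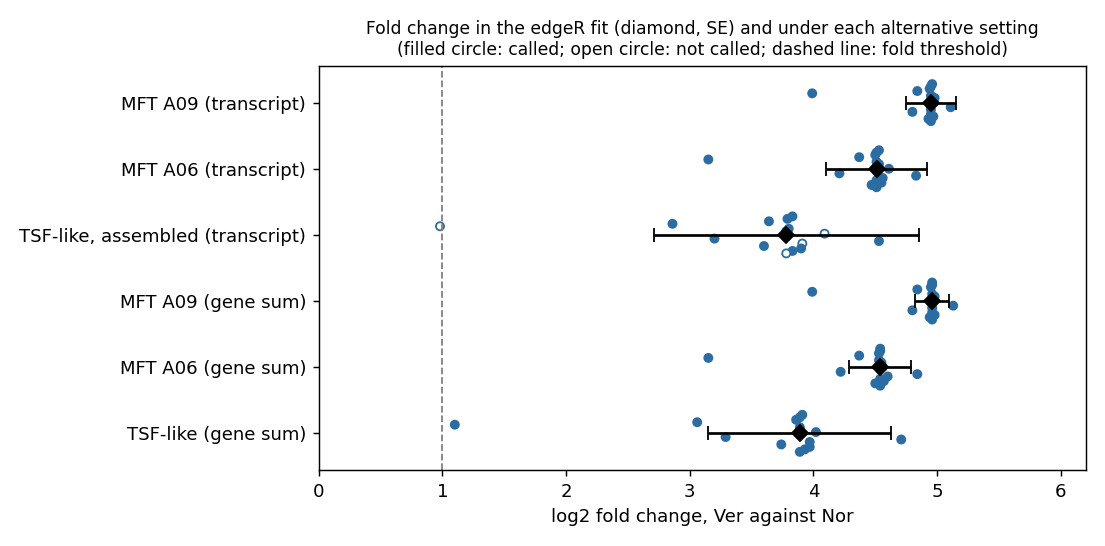
Log2 fold change of Ver against Nor (x axis) for the member transcripts and genes that could be tested, with diamonds and bars for the edgeR value and its SE and circles for each alternative setting (filled, called; open, not called). The MFT genes stay above 3 in every setting, whereas the assembled TSF-like isoform is not called in 4 of 16.

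Markers of seed reserves moved together with the MFT genes. The list for germinating seeds holds 31 annotated transcripts of storage proteins (napins, cruciferins) and oleosins, the coat proteins of oil bodies. Of the 27 that were tested, 22 were called higher in Ver and 2 lower. Of all annotated transcripts tested, 8.42% were called higher and 9.39% lower. The median log2 fold change of the 27 was 4.41, against -0.01 over all annotated transcripts tested. The summed level of these storage protein and oleosin transcripts was 40.4 to 44.4 FPKM in the Nor libraries and 1439 to 1475 FPKM in the Ver libraries, a ratio of 34.4. Among them, the napin transcript BraA01g017840.3C went from 1.68 to 2.73 FPKM in Nor to 206 to 228 FPKM in Ver, with a log2 fold change of 6.66 (SE 0.23, adjusted p = 4.47e-05 in edgeR). The 18.5 kDa oleosin BraA08g020220.3C rose by 6.3 on that scale (SE 0.17, adjusted p = 2.25e-05) and the oleosin 1-like BraA05g028790.3C by 7.09 (SE 1.23, adjusted p = 0.0111). The latter had estimated counts of 4, 0 and 0 in Nor and 170, 187 and 236 in Ver. It passed the filter through its Ver libraries alone, as did the 16 kDa oleosin BraA06g004130.3C. Such transcripts lean to rises by construction. The 2 falls are named after their values were seen. Napin-B BraA01g020050.3C was at -1.3 (SE 0.34, adjusted p = 0.0423) and cruciferin CRU4 BraA10g002460.3C at -4.34 (SE 1.52, adjusted p = 0.0965).

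The enzymes of the glyoxylate cycle, which turns stored oil into sugar during seedling establishment, went the other way. All 3 annotated transcripts of isocitrate lyase and malate synthase were called lower in Ver, as were 9.39% of all annotated transcripts tested. The summed level of these 3 was 1938 to 1969 FPKM in Nor and 260.3 to 263.9 FPKM in Ver. Isocitrate lyase BraA05g025430.3C fell by 3.35 on the log2 scale (SE 0.02, adjusted p = 4.45e-07 in edgeR), isocitrate lyase BraA03g039990.3C fell by 3.13 and malate synthase BraA02g001120.3C fell by 1.89. No transcript of the list was at 0 in every library. The part that these seed markers have in the rise of the MFT genes was not tested. The 6 floral organ markers, such as AGAMOUS, APETALA 3 and the SEPALLATA genes, summed to 0 to 0.272 FPKM in Nor and 0.0865 to 0.71 FPKM in Ver, and 1 of them was tested and was not called.

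The TSF-like gene on A07 was read mostly from an isoform outside the annotation. The annotated transcript BraA07g031650.3C spans 22976693 to 22977990 on the plus strand of A07 (B. rapa v3.0), with 3 exons and 333 bases, or 111 codons, which is shorter than the 174 to 178 codons of the other 4 members. The assembled isoform MSTRG.20563.1 ends at the same base but starts 960 bases upstream, at 22975733, and has 1 further exon and 125 more bases. In the Ver libraries, the annotated transcript took 7 of 89, 11 of 68 and 9 of 75 estimated counts of the gene, which is 7.87%, 16.2% and 12%. In the Nor libraries the gene had 15 estimated counts in all, of which 1 was given to the annotated transcript, too few to compare the shares between the groups.

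The TSF-like gene was at 0, 0.157 and 0.0911 FPKM in the Nor libraries and at 1.56, 1.17 and 1.24 FPKM in the Ver libraries, summed over its 2 isoforms. These levels came from estimated counts of 0, 9 and 6 in Nor and 89, 68 and 75 in Ver. Every Ver library was above every Nor library, and the Ver mean of 1.33 ± 0.205 FPKM (SD, n = 3) lay a little above the median of annotated transcripts. The gene rose by 3.89 (SE 0.74) on the log2 scale, a 14.8-fold change, with an adjusted p of 0.00163 in edgeR. It was 3.29 without Nor 1 and 4.71 without Nor 2, and was called in both. In the FPKM scale with 1 added before the logarithm the change was 1.1, since this pseudocount is as large as the Ver level itself.

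Taken by isoform, the assembled MSTRG.20563.1 was at 0, 0.146 and 0.0911 FPKM in Nor and at 1.4, 0.94 and 1.06 FPKM in Ver. The groups did not overlap. It was called, with a log2 fold change of 3.78 (SE 1.07) and an unadjusted p of 0.0151, and its adjusted p was 0.0531 in edgeR. Of the transcripts tested, 16.6% were called and 8.34% were called higher in Ver. Without Nor 3 its unadjusted p was 0.0522 and it was not called. The annotated BraA07g031650.3C did not pass the filter, with 7, 11 and 9 estimated counts in Ver against 0, 1 and 0 in Nor. Without that filter it was called, with an unadjusted p of 0.0165 and an adjusted p of 0.0669 in edgeR. With each Nor library set to the floor of 3 counts, its mean FPKM was 2.76-fold higher in Ver, with no allowance for the spread of counts. The exact permutation p was 0.1 for both isoforms and for their sum, the smallest that 3 against 3 allows.

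FT, the gene BraA02g016700.3C, was barely detected. It lies on the plus strand of A02 from 8897950 to 8900440 (B. rapa v3.0), with 4 exons and 528 bases. It was at 0.112, 0 and 0.282 FPKM in Nor and at 0.252, 0 and 0 FPKM in Ver, from estimated counts of 9, 0 and 21 in Nor and 17, 0 and 0 in Ver. Libraries with and without FT reads thus occurred in both groups, and the groups overlapped (exact permutation test, two-sided p = 0.7). FT did not pass the filter on low counts, and without that filter its log2 fold change was -0.7 with an SE of 2.17 (adjusted p = 0.864 in edgeR). A difference in FT was not detectable at this depth, at which 3 counts correspond to 0.041 to 0.0492 FPKM.

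BFT, the gene BraA06g025510.3C, was lower still. It lies on the plus strand of A06 from 17821821 to 17822724 (B. rapa v3.0), with 4 exons and 534 bases. It was detected in Nor 2, at 0.0523 FPKM from 4 estimated counts, and in Ver 3, at 0.133 FPKM from 10, and was at 0 in the other 4 libraries. The groups overlapped (exact permutation test, two-sided p = 1). Without the filter its log2 fold change was 1.08 with an SE of 2.26 (adjusted p = 0.791 in edgeR), so neither a rise nor a fall was detectable.

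The low values of FT, BFT and the annotated TSF-like transcript are best read against the steps in which estimated counts were deposited. Among annotated transcripts that are the sole row of their gene, the most frequent count above 0 was 4 in each of the 6 libraries. It was found for 417 to 501 transcripts per library, compared with 166 to 214 at 3 and at most 133 at 5, and a further peak of 270 to 303 stood at 8. An estimated count is therefore not the same as a read, and a value such as the 4 counts of BFT in Nor 2 sits at the most frequent of these steps.

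**Figure D3:**
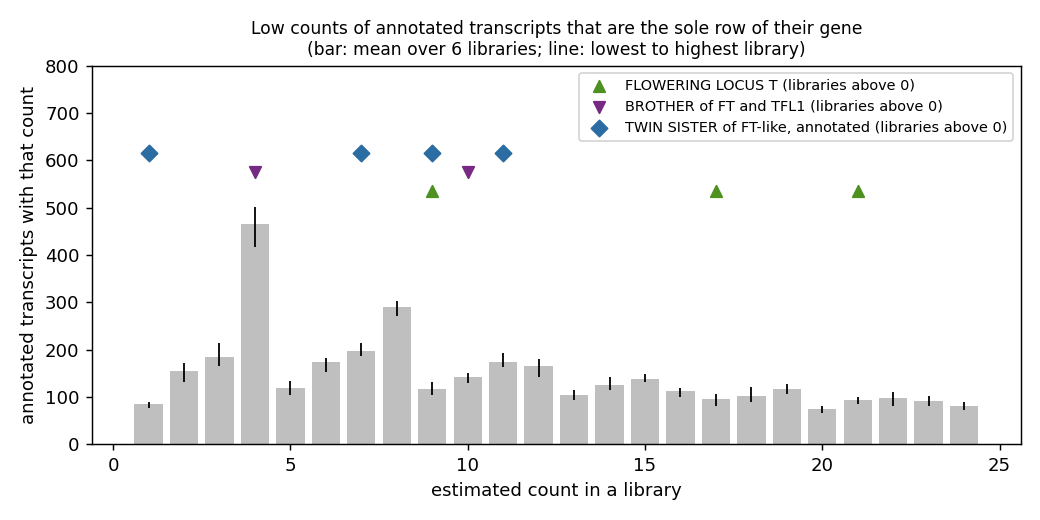
Number of annotated transcripts (y axis, bars for the mean of 6 libraries, lines for the lowest and highest) at each estimated count from 1 to 24 (x axis), with markers above for the libraries in which FT, BFT and the annotated TSF-like transcript were above 0. Peaks stand at 4 and 8 counts, and the highest FT value is 21 counts.

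Within the family, the order of the levels in Ver was MFT on A09, MFT on A06, the TSF-like gene, and then FT and BFT, whose values overlapped. The first 3 did not overlap each other in Ver. In Nor, the A09 gene was above the A06 gene except that its lowest library, at 0.754 FPKM, was below the highest of the A06 gene, at 0.779 FPKM, and the other 3 genes overlapped. The 5 genes summed to 1.57, 1.96 and 1.71 FPKM in Nor and to 44.5, 42.7 and 45.5 FPKM in Ver. The pair of MFT genes made up 92.9%, 89.3% and 78.2% of this sum in Nor and 95.9%, 97.3% and 97.0% in Ver. The TSF-like gene made up at most 8.01% in Nor and 3.51% in Ver. FT reached 16.5% in Nor 3 and 7.14% in Nor 1.

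Another 7 annotated transcripts of the PEBP family are described as TFL1, TFL1-like or CENTRORADIALIS-like. These are relatives of FT that in Arabidopsis and snapdragon keep the shoot apex vegetative or indeterminate. Of these, 4 were tested and 1 was called, and of all annotated transcripts tested 17.8% were called, 8.42% higher and 9.39% lower. The called transcript, CENTRORADIALIS-like BraA03g025050.3C on A03, was at 0.755, 0.467 and 0.181 FPKM in Nor and at 2.04, 1.92 and 1.82 FPKM in Ver. Its log2 fold change was 2.02 (SE 0.53, adjusted p = 0.042 in edgeR), with no overlap between the groups. The most abundant of the list in Nor, CENTRORADIALIS-like BraA07g018240.3C, was at 1.76 ± 0.203 FPKM in Nor and 2.09 ± 0.767 FPKM in Ver (SD, n = 3) and was not called, with a log2 fold change of 0.24 (SE 0.34). The remaining tested transcripts, BraA04g019800.3C and BraA04g019830.3C, had values of -0.44 (SE 0.59) and 0.23 (SE 1.71). The 3 TFL1 transcripts had at most 20 estimated counts in any library and were not tested. Those of the list that were not called were named after their values were seen.

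The genes that act on MFT or with it in the ABA response of seeds were taken as a list of 25 annotated transcripts. It covers ABSCISIC ACID-INSENSITIVE (ABI) factors, DELLA proteins, SPATULA and PHYTOCHROME-INTERACTING FACTORs. Of the 21 tested, 2 were called higher and 1 lower, which is 14.3%, below the share of all annotated transcripts, and the median log2 fold change was 0.52. Summed over isoforms, 7 of 23 genes were called higher and 1 lower, against 9.18% and 9.81% of all genes. ABI5, a bZIP factor that in Arabidopsis binds the MFT promoter, rose from 2.6, 1.91 and 2.62 FPKM in Nor to 7.7, 7.56 and 7.9 FPKM in Ver. The log2 fold change of this transcript, BraA05g009140.3C, was 1.69 (SE 0.15, adjusted p = 0.00109 in edgeR). ABI5-like protein 4, BraA06g003820.3C, rose by 1.2 (SE 0.1, adjusted p = 0.000855), and ABI5-like protein 2, BraA07g022550.3C, fell by 1.28 (SE 0.26, adjusted p = 0.0198).

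ABI3, the B3 factor of seed maturation, was not called as the annotated transcript BraA03g041270.3C, which was listed at 0 in Nor 1. As a gene summed over isoforms it was called, with a log2 fold change of 2.24 (SE 0.23, adjusted p = 2.91e-05 in edgeR). DELLA proteins, which hold back gibberellin responses, were not called as transcripts. RGL1, BraA02g017030.3C, had a log2 fold change of -0.64 (SE 0.07), and RGL3, BraA10g022510.3C, of -0.02 (SE 0.09). RGL2, BraA05g041910.3C, was not tested as a transcript, with 12, 0 and 0 estimated counts in Nor and 0 in each Ver library. Its gene summed over isoforms was called with 1.17 (SE 0.09, adjusted p = 6e-06). The Ver counts of this gene thus all lie in assembled isoforms and not in the annotated RGL2 transcript. ABI3 and these DELLA genes are named here after their values were seen.

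Upstream of FT, the list of repressors, with 21 annotated transcripts, holds FLC and the MADS AFFECTING FLOWERING genes, the AP2-like factors of the TOE and SMZ type, and the B3 factors of the RAV and TEM type. Of the 13 tested, 3 were called higher and 4 lower, which is 53.8% against 17.8% of all annotated transcripts tested, and the median log2 fold change was 0.19. Summed over isoforms, 2 of 17 genes were called higher and 6 lower, against 9.18% and 9.81% of all genes. FLC transcripts BraA03g004170.3C and BraA02g003340.3C fell by 4.95 (SE 0.49, adjusted p = 0.00163 in edgeR) and by 3.64 (SE 0.35, adjusted p = 0.00142). The B3 factor BraA02g036620.3C, described as ARF14-like, fell by 1.67 (SE 0.35, adjusted p = 0.0202). RAV2, BraA02g018750.3C, also a B3 factor of the RAV and TEM type, fell by 1.45 (SE 0.32, adjusted p = 0.0252). The FLC transcripts BraA10g027720.3C and BraA03g015950.3C were not tested. Their genes summed over isoforms were called lower, with -2.77 (SE 0.13, adjusted p = 1.71e-07 in edgeR) and -2.56 (SE 0.29, adjusted p = 6.52e-05). RAV2 and these further FLC genes are named here after their values were seen. The TEM1-like BraA08g025570.3C, whose Arabidopsis counterpart represses FT in young plants, rose by 1.36 (SE 0.08, adjusted p = 0.000305) and the AP2-like TOE3, BraA07g016770.3C, by 1.2 (SE 0.18, adjusted p = 0.00664). The transcript of SMZ, BraA09g045860.3C, rose by 3.64 (SE 0.47, adjusted p = 0.00402), whereas its gene summed over isoforms was not called, with 0.44 (SE 0.08).

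The list of FT activators and photoperiod genes held 8 annotated transcripts, of which 6 were tested, 4 were called higher and 0 lower, with a median of 1.91. Of all annotated transcripts tested, 8.42% were called higher. All 4 are cyclic dof factors, which in Arabidopsis repress CONSTANS and FT, so these members do not do what the name of the list says. CDF3, BraA06g019510.3C, rose from 4.57, 5.31 and 5.14 FPKM in Nor to 36.6, 33.4 and 34.4 FPKM in Ver, a log2 fold change of 2.79 (SE 0.08, adjusted p = 2.31e-05 in edgeR). CDF2, BraA04g012050.3C, rose by 2.83 (SE 0.23) and CDF5, BraA07g030330.3C, by 2.27 (SE 0.16). CONSTANS itself, BraA10g023730.3C, had 4 estimated counts in Ver 1 and 0 in the other 5 libraries. GIGANTEA, BraA09g040290.3C, was not called, either as a transcript (-2.95, SE 1.19, adjusted p = 0.134) or as a gene (0.76, SE 0.03, adjusted p = 3.9e-08). The gene sum was thus higher in Ver but under the fold threshold. The transcript value rests on Nor 1, with estimated counts of 395, 32 and 27 in Nor and 15, 20 and 22 in Ver. CONSTANS and GIGANTEA were named after their values were seen.

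The protein partners of FT are FD-type bZIP factors, 14-3-3 proteins and FT-interacting proteins. Of 33 annotated transcripts, 31 were tested, 1 was called higher and 4 lower, which is 16.1% against 17.8% of all annotated transcripts tested, and the median log2 fold change was -0.04. The FT-interacting protein 1-like BraA02g026540.3C, of a type that in Arabidopsis carries FT into the sieve elements, fell by 2.13 (SE 0.13, adjusted p = 0.000271 in edgeR), and BraA09g050880.3C fell by 1.34 (SE 0.17, adjusted p = 0.00361). The 14-3-3 protein GF14 nu, BraA05g041340.3C, fell by 1.04 (SE 0.05, adjusted p = 0.000139). The FD-like BraA01g002650.3C, which was chosen after its values were seen, was at 0.14, 0.343 and 0.421 FPKM in Nor and 0.845, 0.485 and 0.706 FPKM in Ver, and had a log2 fold change of 1.15 (SE 0.47, adjusted p = 0.141), which was not called. Summed over isoforms this gene was called, with 1.17 (SE 0.43, adjusted p = 0.0444).

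Genes that FT acts on at the apex in Arabidopsis were a list of 5, of which 4 were tested, 2 were called higher and 0 lower, with a median of 3.56, against 8.42% of all annotated transcripts called higher. Both called transcripts passed the filter through their Ver libraries alone, so the count and the median lean to rises by construction. The transcript of SOC1, BraA05g005370.3C, a MADS-box integrator of flowering signals, had estimated counts of 3, 0 and 0 in Nor and 46, 129 and 173 in Ver. With each Nor library set to the floor of 3 counts, its mean FPKM was 37.6-fold higher in Ver, with no allowance for the spread of counts. Its adjusted p was 0.0153 in edgeR. The CAULIFLOWER D-like BraA07g041100.3C had 1, 1 and 4 estimated counts in Nor and 72, 16 and 39 in Ver, with an adjusted p of 0.018.

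**Figure D4:**
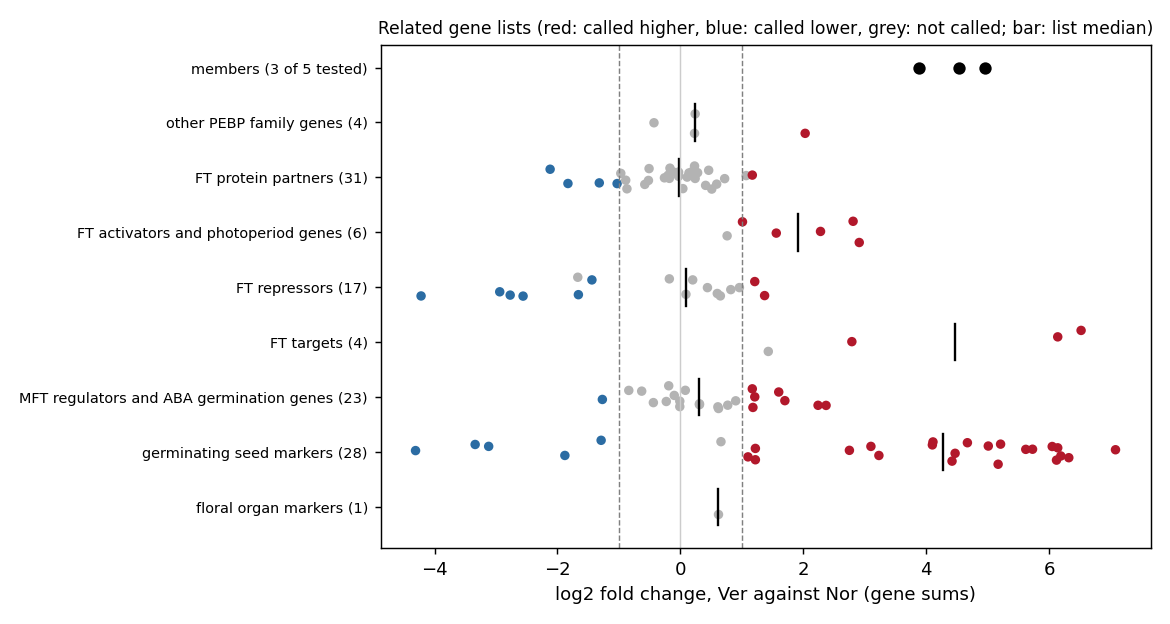
Log2 fold change of Ver against Nor (x axis) for genes summed over isoforms, with 1 row per list and the number tested in brackets, red for called higher, blue for called lower, grey for not called and a vertical bar for the list median. The 3 tested members lie between 3.89 and 4.96, and the FT partners lie around 0.

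No gene beside the members was called higher in Ver in edgeR. Within 25 kb of the MFT gene on A09 there were 8 annotated genes, and 0 of the 8 were called, with log2 fold changes between -0.97 and 0.38 in edgeR. Near the MFT gene on A06, 0 of 6 were called, between -0.42 and 0.37. Near the TSF-like gene, 0 of 6 were called, between -1.86 and 0.28. Of all genes tested, 19.0% were called in edgeR. At an unadjusted p of at most 0.05 with no fold threshold, 8, 4 and 2 of these neighbours differed. The share of all genes at that p was not taken, so these counts cannot be read as a property of the loci. DESeq2 called 0, 0 and 1, the last being the polygalacturonase BraA07g031670.3C downstream of the TSF-like gene, lower in Ver.

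The pair of MFT loci shared 3 neighbours in the same order, a comparison made after the values were seen. Mitogen-activated protein kinase 8 lay 1.9 kb upstream on A09 and 2.1 kb upstream on A06, and had log2 fold changes of 0.27 (SE 0.05, adjusted p = 0.00175) and 0.27 (SE 0.04, adjusted p = 0.000555) in edgeR. A guanine nucleotide-binding protein subunit beta-like gene lay 2.5 and 1.7 kb downstream, with -0.13 (SE 0.03) and -0.2 (SE 0.04). A gene for the release factor subunit ERF3A lay 5.6 and 15.7 kb downstream, with -0.19 (SE 0.05) and -0.42 (SE 0.04). None of the 6 passed the fold threshold.

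Beside FT and BFT, 1 neighbour was called at each locus, and both were lower in Ver, as were 9.81% of all genes tested. An uncharacterized gene, BraA02g016710.3C, lay 7.8 kb downstream of FT and fell by 2.44 (SE 0.22, adjusted p = 1.63e-05 in edgeR). Heat stress transcription factor B-2a, BraA06g025490.3C, lay 20.1 kb upstream of BFT and fell by 2.27 (SE 0.1, adjusted p = 1.41e-07). No transcript of another gene overlapped any of the 5 member loci on either strand, and none of the 976 circRNAs was hosted by a member or overlapped one.

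**Figure D5:**
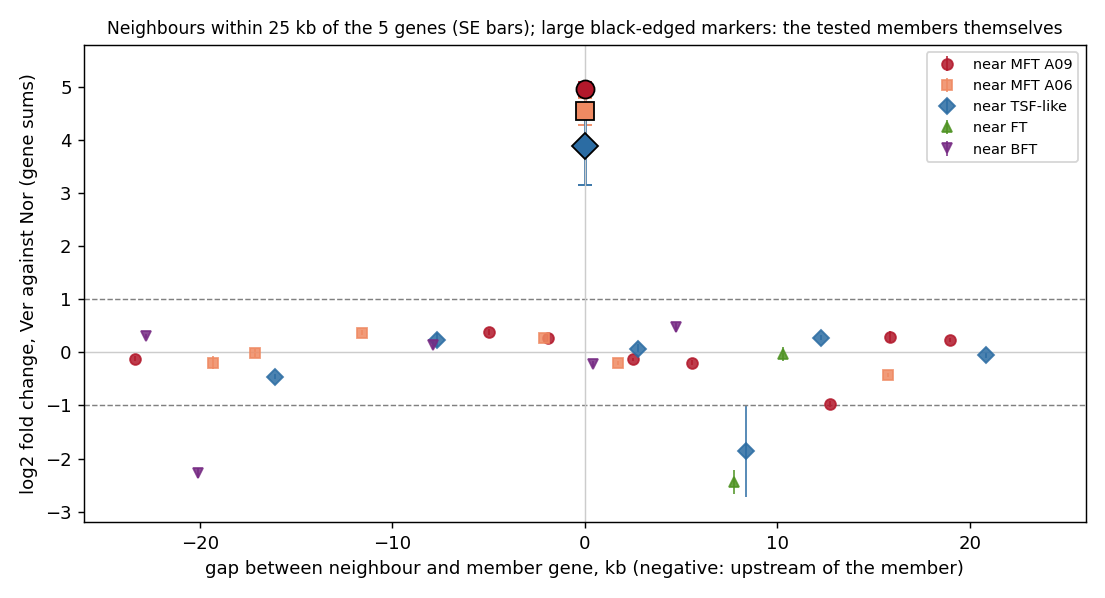
Log2 fold change of Ver against Nor for annotated genes within 25 kb of each member (y axis, gene sums, bars for SE) by distance from the member in kb (x axis, upstream to the left), with the 3 tested members as large black-edged markers at 0. The members lie between 3.89 and 4.96, and no neighbour is above 0.47.

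The annotated transcripts whose pattern was most like each member were found by Pearson r of log2(FPKM + 0.1) over the 6 libraries, among 16755 with a mean of at least 1 FPKM. Because the libraries form 2 groups, a high r is common, and 787 transcripts exceeded 0.99 with the MFT gene on A09. Nearest to it were glutathione S-transferase F2 BraA03g029060.3C (r = 0.99994), TGA2.3-like BraA09g021500.3C (0.99990) and a polygalacturonase, BraA03g051110.3C (0.99979). Pearson r does not measure the size of a change. Glutathione S-transferase F2 went from 39.3, 37.6 and 35.5 FPKM in Nor to 82.1, 82.9 and 83 FPKM in Ver, a far smaller rise than that of the MFT gene. The polygalacturonase went from 8.96, 8.65 and 8.11 FPKM to 19.7, 19.1 and 19.3 FPKM. TGA2.3-like BraA09g021500.3C went from 0.0649, 0.0386 and 0 FPKM in Nor to 5.4, 5.24 and 5.77 FPKM in Ver. For the MFT gene on A06, 388 exceeded 0.99, and the nearest were galactinol synthase 2 BraA09g018570.3C (0.99977), the hydrophobic peptide ESI3 BraA04g027450.3C (0.99973) and STABILIZED1 BraA09g002560.3C (0.99962). Galactinol synthase 2 BraA09g018570.3C, which starts the synthesis of raffinose sugars, went from 0, 0.181 and 0.0925 FPKM in Nor to 10.9, 9.32 and 11.7 FPKM in Ver. STABILIZED1 changed less, from 6.55, 7.31 and 7.15 FPKM in Nor to 10.5, 10.4 and 10.7 FPKM in Ver. For the assembled TSF-like isoform 65 exceeded 0.99, led by the ribosome biogenesis protein RLP24 BraA04g013090.3C (0.99838), a serine/threonine kinase, BraA03g015800.3C (0.99808), and the RICESLEEPER 1-like BraA05g030220.3C (0.99766).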

How the data were processed

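RNA of 3 Nor and 3 Ver libraries was depleted of ribosomal RNA and read as strand-specific paired ends. Per the paper's methods, the authors used Cutadapt for trimming, Bowtie2 with TopHat2 for mapping against the B. rapa v3.0 genome, and StringTie followed by Ballgown for transcript levels. The submitters' processing notes list HISAT2, StringTie and TopHat, with no versions. For each linear transcript, the authors deposited an estimated count, which is whole, and an FPKM value, whose zeros appear as 0.0001. The circRNA table deposited by the authors holds a junction read count and SRPBM, a normalized signal. These values were used only to look for circRNAs at the member loci.

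Estimated counts, as transcripts and summed over a gene, went through filterByExpr and TMM scaling into the quasi-likelihood test of edgeR 4.0.16 (R 4.3.3), and p was adjusted by Benjamini-Hochberg over all rows tested. All 6 libraries entered the fit, without a replicate block. Replicate numbers were not taken as pairing, since the study's methods use no block. Over genes, the deviations of same-numbered libraries correlated at 0.0944, 0.000524 and 0.00515. The first, Nor 1 with Ver 1, was the highest among all pairs of a Nor and a Ver library. These values do not settle whether libraries were paired. The SE is the absolute log2 fold change divided by the square root of F. FPKM values were compared by exact permutation tests. A group with at most 3 counts in each library is at the floor. On simulated data with 200 rows changed 8-fold, 92.5% of the changes among 49351 transcripts were called at unadjusted p and 28.5% had an adjusted p of at most 0.05, and 3.2% of unchanged transcripts were called. Over 32467 genes these were 100%, 99.5% and 0.865%. The changed rows were drawn only from rows with mean counts above those of FT, BFT and the annotated TSF-like transcript. The shares recovered therefore do not cover rows as low as these.

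The members and lists were chosen with earlier results of these data known, and the lists, matched on protein descriptions, had some wrong matches removed after the files were read. Named from each list were up to 3 rises and 3 falls whose adjusted p was at most 0.05 and whose mean count reached 10 in the lower group or 30 in the higher. Alternatives were limma 3.58.1 on log2(FPKM + 1) and log2(FPKM + 0.1), DESeq2 1.42.0, RLE factors, no composition factors, other filters, counts divided by 3, a robust fit, a replicate block, adjusted p for calls and each library left out. Tables and figures were made with Python 3.11.15, pandas 2.3.3, NumPy 2.4.6, SciPy 1.17.1 and matplotlib 3.10.9. Promoter and protein sequences were not analysed here.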

Additional observations from a re-analysis of the deposited data

How the results depend on the processing

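Both MFT genes were called in 17 of 17 alternatives, as transcripts and as genes. The log2 fold change of the transcript on A09 lay between 3.99 and 5.11 (highest adjusted p = 0.0059) and that on A06 between 3.15 and 4.83 (highest adjusted p = 0.0175), both lowest with limma on log2(FPKM + 1). The TSF-like gene was called in 16 of 16, between 1.1 and 4.71 (highest adjusted p = 0.00955), and was not tested at a mean CPM of at least 1. Its assembled isoform was called in 12 of 16. It was 0.98 with limma on log2(FPKM + 1), under the fold threshold, and it lost the call with an adjusted p in place of the unadjusted (3.78, adjusted p = 0.0531). With a library left out it lay between 3.2 and 4.53, and it was not called without Nor 3. With the replicate number as a block it was 4.09 (unadjusted p = 0.0553), and the block changed no other member call. Same-numbered libraries correlated at -0.000619, 0.00214 and -0.00287 over transcripts. The cause of these changes was not tested.

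Transcripts called in all fell from 8187 to 3889 with limma on log2(FPKM + 1). Genes called in all fell from 6164 to 2669 with it and to 3974 at a mean CPM of at least 1. Among the lists, FT partners went from 5 to 3 with limma on log2(FPKM + 1), with adjusted p or without Nor 2, FT repressors from 7 to 3 and FT targets from 2 to 1 with limma on log2(FPKM + 1), and FT targets and other PEBP genes to 0 at a mean CPM of at least 1. ABA genes went from 3 to 5 with DESeq2, with limma on log2(FPKM + 0.1) or without Ver 3. FT, BFT and the annotated TSF-like transcript had too few counts to pass the filter. Whether depth or a lack of expression lies behind these low counts was not tested. With no filter all 3 were tested, and the annotated TSF-like transcript was called (4.25, unadjusted p = 0.0165), which makes 4 member transcripts called in place of 3. The share of the annotated TSF-like transcript was not compared between groups, since Nor held 15 counts, so its alternatives were not run.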
